A study of Homo sapiens with 32 samples.

Results

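The collagen, laminin and integrin genes are a group of 83 genes among the 61541 in the deposited count table. They were taken by gene symbol: every collagen chain, every laminin alpha, beta or gamma chain, and every integrin alpha or beta subunit, with pseudogenes left out. The group holds 44 collagen genes, 12 laminin genes and 27 integrin genes. One of the 27, ITGBL1, is an integrin beta-like gene and was given no place among the subunit classes. The choice used symbols alone and no measured value.

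Collagens are trimers of alpha chains. Fibrillar types form the fibres of connective tissue, type IV forms the network of basement membranes, and other types sit on fibrils, form microfilaments or span the cell membrane. Laminins are trimers of an alpha, a beta and a gamma chain, and they form the second network of the basement membrane. Integrins are alpha-beta heterodimers that bind these proteins at the cell surface and link them to the cytoskeleton, and the alpha subunit largely sets the ligand. In pluripotent cells and early germ cells, laminins carrying the LAMA5 chain and the laminin receptor subunits ITGA6 and ITGB1 are well-known attachment partners.

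The study measured polyadenylated RNA in cultures of 2 human germ cell cancer lines, the embryonal carcinoma-derived NTera2 and the seminoma-derived TCam-2. Its stated purpose was to test how RANKL and its inhibitors act on them. Cultures of each line received RANKL, OPG, denosumab or the vehicle (D-PBS) over 48 h, with 4 libraries in each of the 8 groups and 32 in all. RANKL is the cytokine that activates the receptor RANK, and OPG and denosumab bind RANKL. The protocol gives 1 µg/ml for RANKL and for OPG. It does not name denosumab, so those libraries are called denosumab on their labels alone. All groups of both lines were grown with serum, antibiotics and glutamine, NTera2 in DMEM and TCam-2 in RPMI 1640, so medium and line cannot be told apart. The 4 libraries of a group came from separate experiments, each at 1 passage of the line: 27, 29, 30 and 31 in NTera2 and 118, 120, 121 and 122 in TCam-2. A line is a single culture lineage, so differences between the lines describe these 2 lines and not the tumour types they came from.

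Total gene counts were 11385500 to 30499538 per library in NTera2 and 10585247 to 20257935 in TCam-2. RNA integrity numbers were 8.3 or higher except for TCam-2 RANKL replicates 2 and 4, at 6.1 and 3.7, and 1 NTera2 library had no value. The lines carried the markers of their labels. The summed level of 5 embryonal carcinoma markers, among them SOX2 and DNMT3B, was 3273 to 3675 CPM (counts scaled to a common library size, with TMM factors) in the 16 NTera2 libraries and 498 to 627 CPM in the 16 TCam-2 libraries. That of 5 seminoma markers, among them SOX17 and TFAP2C, was 39.5 to 53.6 CPM in NTera2 and 1623 to 1924 CPM in TCam-2. The fibroblast markers measured (DCN, LUM, PDGFRB and PDGFRA) summed to 38.6 to 48.4 CPM in NTera2 and 2.32 to 7.56 CPM in TCam-2, most of it PDGFRB. DCN and LUM averaged 0.0136 and 0.0711 CPM in the vehicle libraries of NTera2 and 0.0195 and 0.0587 CPM in those of TCam-2. PDGFRB and PDGFRA averaged 37.8 and 5.90 CPM in the vehicle libraries of NTera2 and 3.69 and 1.03 CPM in those of TCam-2. The immune markers summed to at most 1.25 CPM in any library, with PTPRC at 0 in all NTera2 libraries. Endothelial markers, mostly TEK, summed to 79.4 to 103 CPM in NTera2 and 28.2 to 40.1 CPM in TCam-2, and Sertoli cell markers, mostly AMH, to 32.01 to 71.1 CPM and 5.92 to 13.3 CPM. Their part in the differences between lines was not tested.

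In vehicle libraries the lines differed in most of the members tested. After the filter on low counts 69 of the 83 members were tested, and 58 differed at an adjusted p under 0.05 (edgeR's quasi-likelihood test, Benjamini-Hochberg adjustment over 16816 genes). This is set against 76.2% of all genes tested. Of the 69 tested, 29 were higher in TCam-2, beside 37.4% of all genes tested, and 29 were lower, beside 38.8% of all genes tested. The median log2 difference, TCam-2 minus NTera2, was 0.05 over the 69 members and -0.01 over all genes tested, so as a group the members showed no lean to either line. The members that passed the filter are no fair sample of the 83, since a gene seen in 1 line only passes through that line. In bulk RNA, fewer cells carrying a transcript and less of it per cell cannot be told apart.

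The families split in different ways, set beside 37.4% of all genes higher and 38.8% lower in TCam-2. Collagens counted 13 higher and 22 lower in TCam-2 of 40 tested. Laminins counted 7 higher and 3 lower of 11 tested, and integrins 9 higher and 4 lower of 18 tested. Within collagens, the fibrillar class counted 3 higher and 8 lower of 11, and the transmembrane class 3 higher and 1 lower of 4. The 14 members not tested were 4 collagens, 1 laminin and 9 integrins, and their vehicle means were at most 1.18 CPM.

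**Figure D1:**
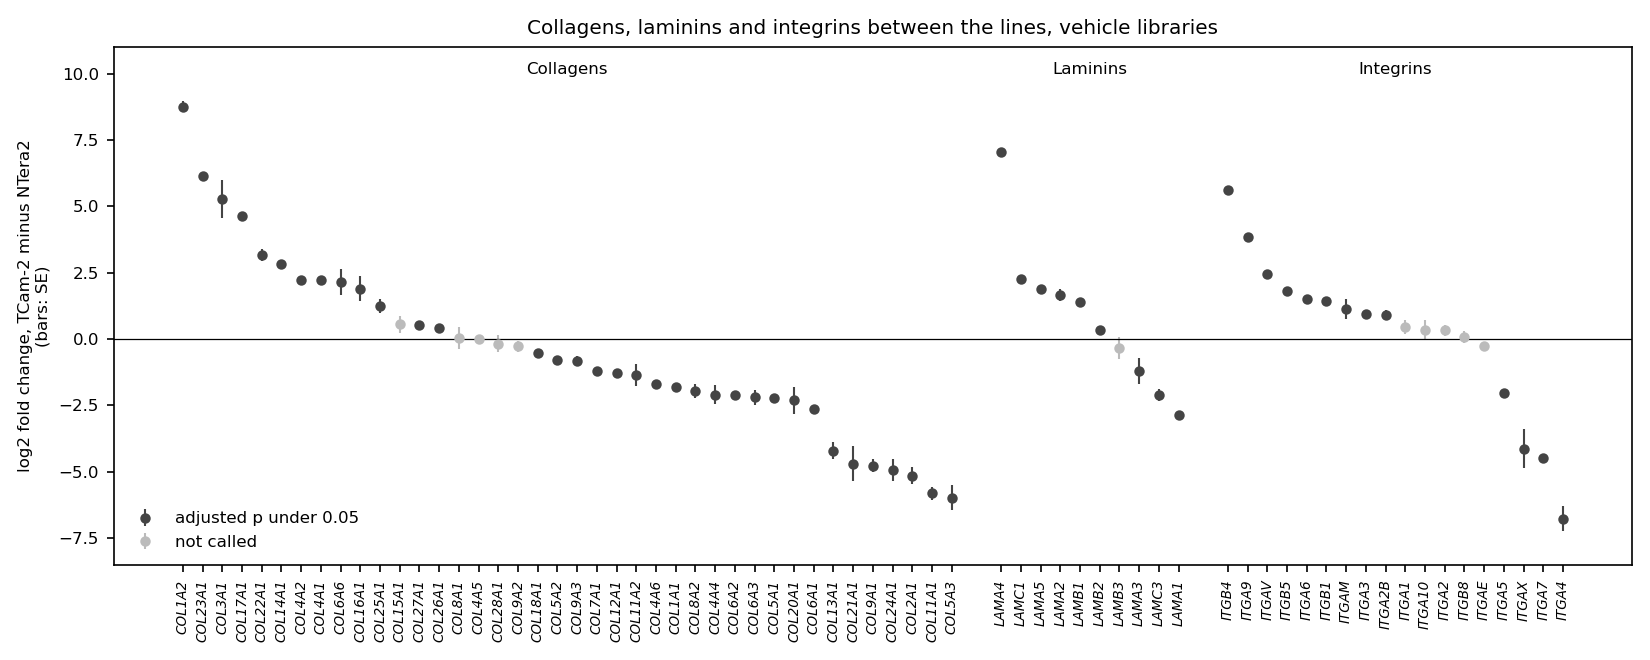
Log2 fold change between vehicle libraries, TCam-2 minus NTera2, for the members tested, 1 of the 69 left out, ordered within each family; points are edgeR estimates with SE bars, dark where adjusted p was under 0.05 and grey where it was not. The points run from -6.76 for ITGA4 to 8.76 for COL1A2; the values of ITGA4, ITGAX and COL3A1 rest on 2 or 3 counts in 1 line and depend on the fit's prior count.

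Type I collagen, the main fibre-forming collagen of bone and skin, is normally built of COL1A1 and COL1A2 chains. Levels per length below are RPKM (TMM-scaled CPM divided by the deposited gene length in kilobases), which allow chains to be set side by side within a library. COL1A1 (chromosome 17, minus strand) was at 3.38, 3.72, 2.701 and 3.54 RPKM in the NTera2 vehicle libraries and at 1.05, 1.15, 0.791 and 0.831 RPKM in the TCam-2 ones. COL1A2 (chromosome 7, plus strand) was at 0.0201, 0.129, 0.0511 and 0.0434 RPKM in NTera2 and at 26.2, 26.7, 26.5 and 25.1 RPKM in TCam-2. The ranges did not overlap for either chain, and the chains moved in opposite directions. COL1A1 fell by 1.81 on the log2 scale from NTera2 to TCam-2 (SE 0.15, adjusted p = 1.32e-08 by edgeR), and COL1A2 was higher by 8.76 (SE 0.20, adjusted p = 9.66e-16), a 433-fold difference. Each line therefore held 1 of the 2 chains in excess: the log2 ratio of COL1A2 to COL1A1 was -6.08 ± 1.07 (SD, n = 4) in NTera2 and 4.79 ± 0.24 in TCam-2. The difference in COL1A2 was the largest among the members in the upward direction. NTera2 held 41 COL1A2 counts over its 4 vehicle libraries against 14112 in TCam-2.

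The other fibrillar chains were mostly higher in NTera2. COL2A1, the cartilage fibrillar chain, was at 2.89, 2.86, 3.13 and 5.23 RPKM in NTera2 and at 0.0352, 0.0842, 0.0940 and 0.175 RPKM in TCam-2 (log2 difference -5.14, SE 0.31, adjusted p = 1.98e-10 by edgeR). COL11A1, which joins type II fibrils, was at 2.65, 3.27, 2.75 and 2.82 RPKM in NTera2 and between 0.0172 and 0.0800 RPKM in TCam-2 (log2 difference -5.81, SE 0.24, adjusted p = 1.23e-12). COL5A3, a type V chain, was at 2.25, 2.62, 1.84 and 2.54 RPKM in NTera2 and at 0, 0.152, 0.0115 and 0 RPKM in TCam-2 (log2 difference -5.97, SE 0.47, adjusted p = 5.23e-09). All 3 genes were separated between the lines with no overlap. The other type V chains, which regulate fibril width, differed less: COL5A1 by -2.22 (SE 0.13) and COL5A2 by -0.80 (SE 0.13). COL27A1, a fibrillar chain of growing cartilage, differed the other way, by 0.55 (SE 0.10, adjusted p = 6.93e-05). COL3A1, the partner of type I in soft tissue, had 3 counts in the NTera2 vehicle libraries and 109 in the TCam-2 ones, a ratio of 46.4 with a 95% counting interval of 15.5 to 228.

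The type IX chains, which decorate type II fibrils as a trimer of COL9A1, COL9A2 and COL9A3, did not differ alike. COL9A1 was at 2.02, 2.64, 1.98 and 2.42 RPKM in NTera2 and at 0.0302, 0.0543, 0.106 and 0.134 RPKM in TCam-2 (log2 difference -4.76, SE 0.26, adjusted p = 4.04e-11 by edgeR). COL9A3 differed by -0.81 (SE 0.20, adjusted p = 0.00126), with overlapping libraries, and COL9A2 by -0.27 (SE 0.20, adjusted p = 0.234), which did not pass. COL14A1, a fibril-associated chain, was 7.02-fold higher in TCam-2 (log2 difference 2.81, SE 0.16, adjusted p = 7.16e-11). COL22A1, known from tissue junctions, was 9.02-fold higher (log2 difference 3.17, SE 0.23, adjusted p = 1.88e-09). COL12A1, which sits on type I fibrils, was 2.42-fold lower (log2 difference -1.27, SE 0.12, adjusted p = 8.16e-08).

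Among collagens anchored in the cell membrane, 3 of 4 were higher in TCam-2. COL23A1 was at 1.41, 1.83, 1.123 and 1.45 RPKM in NTera2 and at 93.3, 108, 92.3 and 125 RPKM in TCam-2, a 71.5-fold difference (log2 6.16, SE 0.14, adjusted p = 9.71e-16 by edgeR). COL17A1, the hemidesmosome collagen of skin, was at 0.862, 1.09, 0.780 and 0.831 RPKM in NTera2 and at 21.8, 20.1, 25.8 and 22.5 RPKM in TCam-2 (log2 difference 4.65, SE 0.12, adjusted p = 2.57e-15). Neither gene had overlapping libraries. COL13A1, a transmembrane collagen of the neuromuscular junction, lay the other way (log2 difference -4.20, SE 0.31, adjusted p = 2.67e-09). COL25A1 was 2.35-fold higher in TCam-2 (log2 difference 1.24, SE 0.27, adjusted p = 0.00056).

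Type VI collagen forms beaded microfilaments from COL6A1, COL6A2 and a larger alpha chain, commonly COL6A3. COL6A1 was at 16.6, 20.4, 15.3 and 18.7 RPKM in NTera2 and at 2.69, 2.63, 2.46 and 3.57 RPKM in TCam-2 (log2 difference -2.64, SE 0.12, adjusted p = 7.72e-12 by edgeR). COL6A2 was at 12.01, 15.3, 9.89 and 12.6 RPKM in NTera2 and at 2.90, 3.00, 2.46 and 3.11 RPKM in TCam-2 (log2 difference -2.12, SE 0.13, adjusted p = 2.53e-10). COL6A3 was between 0.153 and 0.215 RPKM in NTera2 and between 0.0338 and 0.0436 RPKM in TCam-2 (log2 difference -2.19, SE 0.28, adjusted p = 1.93e-06). The 3 chains were lower in TCam-2. The log2 ratio of COL6A1 to COL6A2 was 0.52 in NTera2 and -0.02 in TCam-2 on average, with no overlap of libraries. COL6A3 was far below the others in both lines: the log2 ratio of COL6A1 to COL6A3 was 6.64 ± 0.21 (SD, n = 4) in NTera2 and 6.17 ± 0.38 in TCam-2, with overlap. COL26A1, an emilin-like collagen, was high in both lines, at 35.2 ± 3.76 RPKM in NTera2 and 47.5 ± 6.18 RPKM in TCam-2 (SD, n = 4 each).

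COL18A1, the basement membrane collagen that yields endostatin, was the highest collagen per length in NTera2, at 63.5, 79.3, 54.97 and 78.0 RPKM. In TCam-2 it was at 49.4, 50.6, 37.9 and 56.0 RPKM, lower by 1.42-fold with overlapping libraries (log2 difference -0.51, SE 0.12, adjusted p = 0.00101 by edgeR). Its relative COL15A1 was at 0.330 RPKM in NTera2 and 0.483 RPKM in TCam-2 on average (log2 difference 0.55, SE 0.33, adjusted p = 0.137), which did not pass.

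Type IV collagen chains are encoded in head-to-head pairs that share a short bidirectional promoter, and the pairs differed between the lines in unlike ways. The common network chains COL4A1 and COL4A2 were both higher in TCam-2. COL4A1 was at 11.47, 12.5, 11.9 and 11.6 RPKM in NTera2 and at 56.3, 57.8, 52.0 and 53.8 RPKM in TCam-2 (log2 difference 2.21, SE 0.07, adjusted p = 2.69e-14 by edgeR). COL4A2 was at 10.9, 12.6, 10.34 and 11.55 RPKM in NTera2 and at 50.1, 57.4, 47.0 and 56.7 RPKM in TCam-2 (log2 difference 2.22, SE 0.08, adjusted p = 5.23e-13). The log2 ratio of COL4A1 to COL4A2 was 0.07 ± 0.09 (SD, n = 4) in NTera2 and 0.06 ± 0.11 in TCam-2, so these 2 chains differed by the same factor. The pair on chromosome X did not. COL4A5 was at 5.85, 6.41, 5.32 and 5.30 RPKM in NTera2 and at 6.32, 5.71, 6.22 and 5.01 RPKM in TCam-2 (log2 difference 0.02, SE 0.10, adjusted p = 0.842). COL4A6 was at 8.15, 8.66, 8.59 and 8.41 RPKM in NTera2 and at 2.88, 2.28, 2.69 and 2.74 RPKM in TCam-2, with no overlap (log2 difference -1.68, SE 0.09, adjusted p = 3.49e-11). COL4A4, from the pair of COL4A3 and COL4A4, was lower in TCam-2 by -2.10 (SE 0.36, adjusted p = 5.06e-05), at 2.43 and 0.571 CPM. COL4A3 was too low to be tested. COL4A1 and COL4A2 overlap at their starts in the deposited coordinates, on opposite strands, and the strand setting of the counting is not given in the sources used here.

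Start regions are shown for both pairs because they differ in how close their starts lie. Sequences are from RefSeq on GRCh38.p14, 250 bases before to 50 after each start, 5′ to 3′ along the gene, and 59 of the 83 members had an entry. COL4A2 is shown from chr13:110307034-110307333 (plus strand), COL4A5 from chrX:108439588-108439887 (plus strand) and COL4A6 from chrX:108439409-108439708 (minus strand). Capitals mark the CCAAT box (CCAAT) and the GC box (GGGCGG), each searched on both strands.
COL4A2: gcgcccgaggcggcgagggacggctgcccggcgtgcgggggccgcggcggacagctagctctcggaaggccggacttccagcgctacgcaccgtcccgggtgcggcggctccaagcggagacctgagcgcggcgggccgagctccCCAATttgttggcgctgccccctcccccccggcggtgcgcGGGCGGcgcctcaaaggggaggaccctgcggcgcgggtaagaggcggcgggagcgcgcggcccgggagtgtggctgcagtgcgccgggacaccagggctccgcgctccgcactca
COL4A5: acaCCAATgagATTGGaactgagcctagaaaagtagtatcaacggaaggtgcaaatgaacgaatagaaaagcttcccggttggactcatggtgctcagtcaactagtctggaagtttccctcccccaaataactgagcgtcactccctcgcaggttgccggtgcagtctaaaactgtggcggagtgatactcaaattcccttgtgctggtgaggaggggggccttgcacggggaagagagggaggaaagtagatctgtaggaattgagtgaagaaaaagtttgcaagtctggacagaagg
COL4A6: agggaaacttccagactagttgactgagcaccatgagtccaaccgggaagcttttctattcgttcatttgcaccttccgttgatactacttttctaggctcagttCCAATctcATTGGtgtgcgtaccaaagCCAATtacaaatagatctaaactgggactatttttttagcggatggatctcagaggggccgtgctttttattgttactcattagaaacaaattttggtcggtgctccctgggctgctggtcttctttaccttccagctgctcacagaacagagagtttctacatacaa
The starts of COL4A1 and COL4A2 lie 127 bases apart, and their windows share 226 bases, so the printed COL4A2 window holds most of the COL4A1 window read in the other direction. The COL4A6 start shown lies 380 bases from that of COL4A5, with 121 shared bases, and a further COL4A6 start lies 1416 bases away with none shared. The CCAAT box occurred 1 time in the COL4A2 window, 2 times in the COL4A5 window and 3 times in the COL4A6 window, and the GC box 1 time in that of COL4A2 and 0 times in the others. The window of the further COL4A6 start, not printed, held 0 CCAAT boxes and 1 GC box. Of all 35116 windows in the table, 34.6% held a CCAAT box and 45.0% held a GC box. These are letter matches and not measured binding sites.

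**Figure D2:**
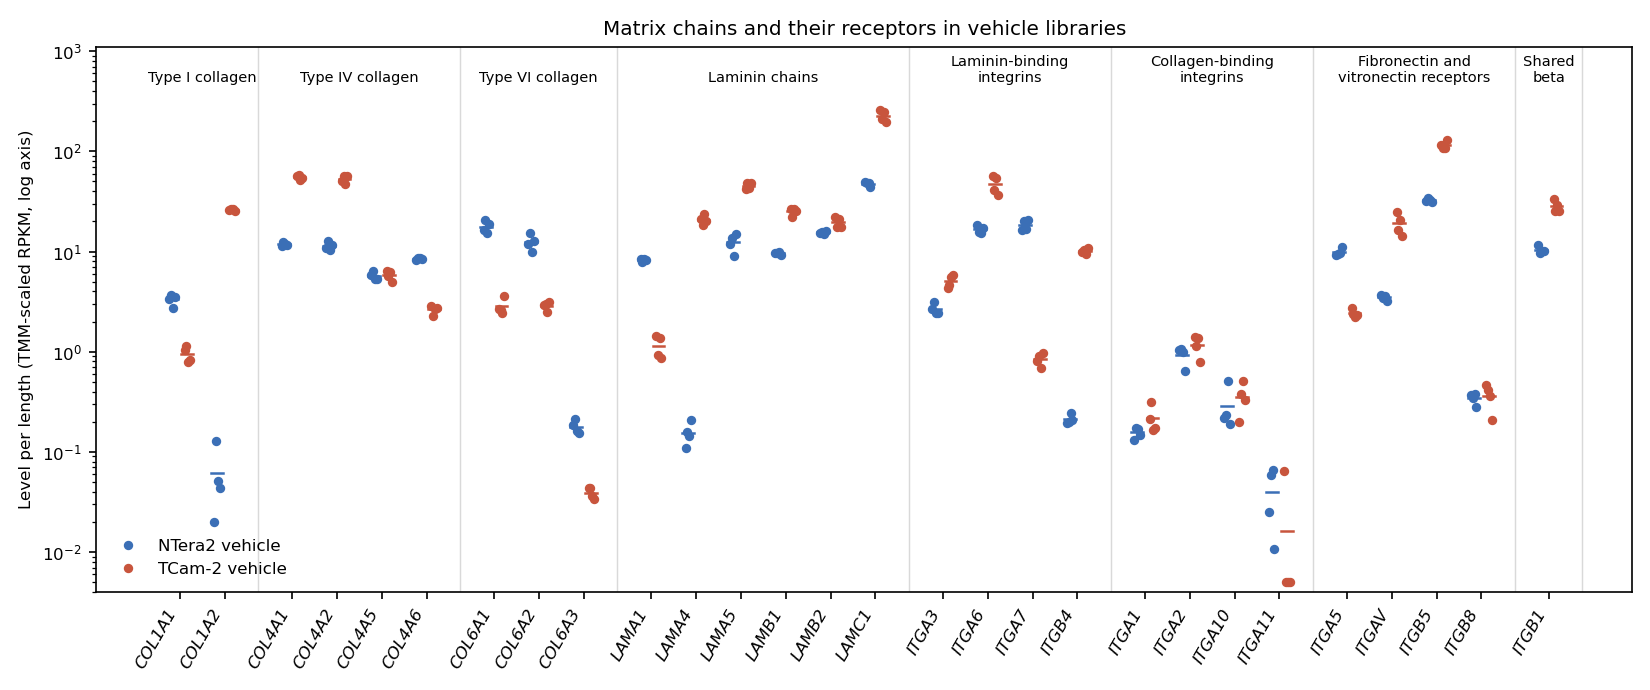
Level per length (TMM-scaled RPKM, log axis) of matrix chains and integrin subunits in the 4 NTera2 (blue) and 4 TCam-2 (red) vehicle libraries; points are libraries, bars are means, and a value of 0 is drawn at 0.005. COL1A2, LAMA4 and ITGB4 lie far higher in TCam-2, ITGA7, LAMA1 and type VI chains higher in NTera2, and the collagen-binding integrins near each other in both lines.

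The laminin chains shared by most trimers were higher in TCam-2. LAMC1, the gamma chain of most laminins, was the highest laminin per length in both lines, at 49.9, 48.5, 47.9 and 43.7 RPKM in NTera2 and 260, 209, 247 and 194 RPKM in TCam-2 (log2 difference 2.26, SE 0.09, adjusted p = 4.85e-13 by edgeR). LAMB1, the main beta chain, was at 9.71, 9.72, 9.88 and 9.23 RPKM in NTera2 and 26.8, 22.1, 26.7 and 25.4 RPKM in TCam-2 (log2 difference 1.39, SE 0.07, adjusted p = 1.22e-11). LAMB2, the beta chain of muscle and kidney laminins, differed by 0.33 (SE 0.08, adjusted p = 0.00179), a 1.26-fold difference. The gamma chain thus differed more than either beta chain, and the log2 ratio of LAMB1 plus LAMB2 to LAMC1 went from -0.91 ± 0.09 (SD, n = 4) in NTera2 to -2.34 ± 0.11 in TCam-2. LAMA3 and LAMB3, an alpha and a beta chain of epithelial laminins, were low in both lines: LAMA3 was at 1.63 and 0.729 CPM in NTera2 and TCam-2, and LAMB3 at 1.25 and 0.992 CPM.

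The alpha chains, which carry the main integrin-binding domains, differed in opposite directions. LAMA1, the alpha chain of the early embryo, was at 8.52, 7.85, 8.36 and 8.21 RPKM in NTera2 and 1.43, 0.920, 1.38 and 0.871 RPKM in TCam-2 (log2 difference -2.84, SE 0.13, adjusted p = 7.16e-12 by edgeR). LAMA5, the most widespread alpha chain, was at 11.9, 13.7, 8.98 and 15.01 RPKM in NTera2 and 42.3, 48.1, 43.2 and 48.7 RPKM in TCam-2 (log2 difference 1.88, SE 0.12, adjusted p = 3.44e-10). LAMA4, the alpha chain of blood vessel walls, was at 0.109, 0.159, 0.145 and 0.210 RPKM in NTera2 and 20.9, 18.3, 23.9 and 19.9 RPKM in TCam-2, a 133-fold difference (log2 7.05, SE 0.14, adjusted p = 2.32e-16). No library of 1 line overlapped the other for these 3 chains. NTera2 therefore held LAMA5 and LAMA1 at like levels, with a log2 ratio of 0.57 ± 0.35 (SD, n = 4), and TCam-2 held LAMA5 far above LAMA1, with a ratio of 5.34 ± 0.48. LAMA2, the muscle alpha chain, stayed below 0.5 RPKM in every vehicle library and was 3.16-fold higher in TCam-2 (log2 difference 1.66, SE 0.24, adjusted p = 8.39e-06).

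Of the integrin subunits that bind laminin, ITGA6 and ITGA7 separated the lines. ITGA6 was at 18.4, 15.7, 15.4 and 17.2 RPKM in NTera2 and 56.3, 40.9, 54.6 and 36.4 RPKM in TCam-2 (log2 difference 1.49, SE 0.12, adjusted p = 5.59e-09 by edgeR). ITGA7, best known from muscle, was at 16.3, 19.99, 16.9 and 20.9 RPKM in NTera2 and 0.800, 0.906, 0.681 and 0.969 RPKM in TCam-2 (log2 difference -4.47, SE 0.12, adjusted p = 9.37e-15). ITGA3, a receptor subunit for epithelial laminins, was 1.90-fold higher in TCam-2 (log2 difference 0.93, SE 0.12, adjusted p = 2.49e-06). The line high in ITGA7 was also the line high in LAMA1, and the line high in ITGA6 was high in LAMA5 and LAMC1. The log2 ratio of ITGA6 to ITGA7 was -0.15 ± 0.23 (SD, n = 4) in NTera2 and 5.80 ± 0.52 in TCam-2. Set against the summed laminin-binding alpha subunits, LAMC1 stood at a log2 ratio of 0.33 ± 0.16 in NTera2 and 2.11 ± 0.07 in TCam-2. This sum joins subunits that differed in opposite directions, and ITGA7 alone differed more than LAMC1.

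The beta subunits that pair with ITGA6 differed as well. ITGB1, the partner of most alpha subunits, was at 11.7, 9.72, 10.1 and 10.0 RPKM in NTera2 and 33.1, 25.3, 29.2 and 25.3 RPKM in TCam-2 (log2 difference 1.44, SE 0.09, adjusted p = 2.49e-10 by edgeR). ITGB4, which pairs with ITGA6 alone and joins hemidesmosomes, was at 0.193, 0.197, 0.245 and 0.208 RPKM in NTera2 and 9.91, 10.4, 9.48 and 10.97 RPKM in TCam-2, a 48.4-fold difference (log2 5.60, SE 0.13, adjusted p = 1.47e-15). The ratio of ITGB1 to ITGB4 fell accordingly, from a log2 value of 5.62 ± 0.23 (SD, n = 4) in NTera2 to 1.46 ± 0.26 in TCam-2. COL17A1, the collagen that joins ITGB4 in hemidesmosomes, was high in the same line.

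The collagen-binding alpha subunits were low in both lines, and none was called different between them. ITGA2 was at 1.04, 1.05, 1.00 and 0.639 RPKM in NTera2 and 1.41, 1.15, 1.36 and 0.782 RPKM in TCam-2, with overlap (log2 difference 0.33, SE 0.21, adjusted p = 0.161 by edgeR). ITGA1 differed by 0.46 (SE 0.26, adjusted p = 0.111) and ITGA10 by 0.33 (SE 0.37, adjusted p = 0.428), also with overlap. ITGA11 had 26 counts in the NTera2 vehicle libraries and 9 in the TCam-2 ones and was not tested. None of the 3 subunits tested passed, beside 76.2% of all genes, and with SEs of 0.21 to 0.37 smaller differences than those seen in other receptors could not be detected. COL4A1 and COL4A2 together stood at a log2 ratio of 4.06 ± 0.37 (SD, n = 4) to the summed collagen-binding alpha subunits in NTera2 and 5.95 ± 0.35 in TCam-2. The estimates of ITGA1, ITGA2 and ITGA10 were positive but did not pass. That is the direction of COL1A2, COL4A1 and COL4A2, and opposite to that of COL1A1, COL2A1 and COL6A1.

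Receptors of fibronectin and vitronectin split by subunit. ITGA5, the classical fibronectin receptor subunit, was at 9.18, 9.49, 9.64 and 10.99 RPKM in NTera2 and 2.75, 2.35, 2.24 and 2.31 RPKM in TCam-2 (log2 difference -2.03, SE 0.10, adjusted p = 1.41e-11 by edgeR). Its ligand FN1, which is not a member, was lower in TCam-2 too (log2 difference -1.51, SE 0.12, adjusted p = 1.00e-08), and the log2 ratio of FN1 to ITGA5 was -0.20 ± 0.32 (SD, n = 4) in NTera2 and 0.32 ± 0.35 in TCam-2, with overlap. ITGAV, the alpha subunit of vitronectin receptors, was at 3.68, 3.47, 3.57 and 3.22 RPKM in NTera2 and 25.1, 16.5, 20.5 and 14.2 RPKM in TCam-2 (log2 difference 2.45, SE 0.14, adjusted p = 9.18e-11). ITGB5, its beta partner, was the highest integrin per length in both lines, at 31.9, 34.3, 32.6 and 31.2 RPKM in NTera2 and 117, 108, 108 and 129 RPKM in TCam-2 (log2 difference 1.83, SE 0.07, adjusted p = 4.67e-13). ITGB8, a further partner that activates TGF-beta, did not pass (log2 difference 0.07, SE 0.23, adjusted p = 0.789). ITGB3 and ITGB6 were not tested, with ITGB6 at 0 in all vehicle libraries. ITGA9, a receptor subunit for tenascin and VCAM1, was 14.3-fold higher in TCam-2, at 229 ± 23.1 CPM against 16.1 ± 1.44 CPM (log2 difference 3.83, SE 0.10, adjusted p = 4.28e-15). Its relative ITGA4, a leukocyte and neural crest subunit, lay the other way, with 473 counts in NTera2 and 3 in TCam-2, a ratio of 123 with a 95% counting interval of 42.0 to 601.

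The leukocyte integrins were at low levels. ITGAE was at 11.2 and 9.30 CPM and did not pass (log2 difference -0.27, SE 0.14, adjusted p = 0.0911 by edgeR). ITGAX, a dendritic cell subunit, had 54 counts in NTera2 and 2 in TCam-2, a ratio of 21.1 with a 95% counting interval of 5.58 to 179. ITGAL had 18 counts in NTera2 and 0 in TCam-2, at least 4.70-fold lower there against a floor of 3 counts over the group. ITGAM, a myeloid subunit, was at 0.563 and 1.25 CPM and passed (log2 difference 1.14, SE 0.38, adjusted p = 0.0129).

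Level orders per length depend on the gene length used, while differences of a gene between lines do not. With the deposited lengths the leading collagens were COL18A1, COL26A1 and COL6A1 in NTera2 (68.9, 35.2 and 17.8 RPKM) and COL23A1, COL4A1 and COL4A2 in TCam-2 (105, 54.97 and 52.8 RPKM). COL6A1 overlapped COL9A3, next in order, and COL4A1, COL4A2 and COL18A1 overlapped in turn. With the longest protein-coding transcript of GENCODE 29 as length, an alternative chosen after seeing the data, COL4A2 came first in TCam-2 at 157 RPKM, ahead of COL23A1 at 149 RPKM. In NTera2 COL4A2 moved from place 7 to place 3 at 33.7 RPKM, and COL6A1 from place 3 to place 6. Among integrins in TCam-2, ITGB1 rose from place 3 to place 2 at 109 RPKM, ahead of ITGA6 at 55.9 RPKM. In NTera2 ITGB1 rose from place 4 to place 3 at 39.9 RPKM. The deposited length of ITGB1 was 3.85 times that of the transcript. LAMC1 and ITGB5 led their families in both lines with either length. Ratios between genes shift with the lengths too, by the same amount in both lines where single genes are compared. With the transcript lengths the log2 ratio of LAMC1 to the laminin-binding alpha subunits was -0.37 in NTera2, the opposite sign, and 1.84 in TCam-2. That of LAMB1 plus LAMB2 to LAMC1 was -0.03 and -1.21, that of ITGA6 to ITGA7 -1.04 and 4.91, and that of LAMA5 to LAMA1 0.17 and 4.95. That of ITGB1 to ITGB4 was 7.38 and 3.22, and that of COL4A1 to COL4A2 was -0.35 and -0.36.

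Genes that make, bind and cut these chains differed in both directions, and the lists were chosen for their roles. Of 26 collagen processing genes tested, 12 were higher and 10 lower in TCam-2, beside the shares of all genes given above. PLOD1, a collagen lysyl hydroxylase, was at 49.7 CPM in NTera2 against 801 CPM in TCam-2 (log2 difference 4.01, SE 0.08, adjusted p = 1.44e-16 by edgeR). PCOLCE, which speeds the trimming of fibrillar procollagen, was at 105 CPM in NTera2 against 0.931 CPM in TCam-2 (log2 difference -6.80, SE 0.27, adjusted p = 6.86e-13). ADAMTS14, a procollagen peptidase, was lower in TCam-2 by -5.17 (SE 0.54, adjusted p = 2.13e-07). LOXL4, a crosslinking oxidase, had 0 counts in TCam-2, at least 24.8-fold lower than in NTera2.

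Of 25 other matrix genes tested, 10 were higher and 14 lower in TCam-2, beside 37.4% and 38.8% of all genes. Genes of the basement membrane were on both sides. NID1, which ties laminin to type IV collagen, was lower in TCam-2 by -3.99 (SE 0.13, adjusted p = 7.40e-14 by edgeR), and HSPG2, the proteoglycan perlecan, by -4.30 (SE 0.17, adjusted p = 6.65e-13). SPARC, a collagen-binding matrix protein, was higher by 0.78 (SE 0.06), PXDN, the peroxidase that crosslinks type IV collagen, by 1.52 (SE 0.10), and AGRN, the proteoglycan agrin, by 0.47 (SE 0.14, adjusted p = 0.00684). THBS2, a thrombospondin, had 0 counts in TCam-2, at least 679-fold lower than in NTera2. VCAN, the proteoglycan versican, was at 225 CPM in NTera2 against 4.71 CPM in TCam-2 (log2 difference -5.59, SE 0.12, adjusted p = 3.02e-16). EFEMP1, a fibulin, was at 5.67 CPM in NTera2 against 340 CPM in TCam-2 (log2 difference 5.91, SE 0.12, adjusted p = 3.02e-16).

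Of 11 other receptors tested, 5 were higher and 5 lower in TCam-2, beside 37.4% and 38.8% of all genes. BCAM, a receptor for LAMA5, was higher in TCam-2 by 2.22 (SE 0.11, adjusted p = 8.41e-12 by edgeR), and SDC2, a syndecan, by 3.54 (SE 0.07, adjusted p = 1.25e-16). SDC1 was lower by -3.24 (SE 0.11, adjusted p = 7.85e-14). CD44, a hyaluronan receptor, had 553 counts in NTera2 and 3 in TCam-2, a ratio of 144 with a 95% counting interval of 49.1 to 702.

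Of 23 integrin adaptors and kinases, 12 were higher and 5 lower in TCam-2, beside 37.4% and 38.8% of all genes. PTK2, focal adhesion kinase, was higher by 1.29 (SE 0.07, adjusted p = 3.61e-11 by edgeR), and FERMT3, a kindlin of blood cells, by 1.91 (SE 0.26, adjusted p = 4.65e-06). FERMT1, an epithelial kindlin, was lower by -2.56 (SE 0.13, adjusted p = 1.82e-11). ILK, integrin-linked kinase, did not pass (log2 difference 0.00, SE 0.08, adjusted p = 0.963). PARVB, a parvin partner of ILK, had 890 counts in NTera2 and 2 in TCam-2, a ratio of 349 with a 95% counting interval of 96.2 to 2883. PARVA, another parvin, lay the other way, higher in TCam-2 by 1.07 (SE 0.10, adjusted p = 3.03e-08 by edgeR).

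Of 23 matrix proteases and inhibitors, 10 were higher and 10 lower in TCam-2, beside 37.4% and 38.8% of all genes. The tissue inhibitors of metalloproteinases did not differ alike. TIMP4 was at 30.6 CPM in NTera2 against 0.653 CPM in TCam-2, and TIMP3 at 6.55 CPM against 0.220 CPM. TIMP2 lay the other way, at 55.7 CPM against 242 CPM. MMP16, a membrane metalloproteinase, was lower in TCam-2 by -4.49 (SE 0.49, adjusted p = 3.60e-07 by edgeR). No gene of these 5 lists passed in any treatment comparison.

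Within each line, no member passed the test in any of the 6 comparisons of a treatment with vehicle. The comparisons were made in edgeR over 17351 genes in NTera2 and 16621 in TCam-2, with 0% of all genes called in each of the 6. In each line the 3 treatments share the same 4 vehicle libraries, so their values below are not independent of one another. At an unadjusted p under 0.05, 11 of 67 members stood out in NTera2 with RANKL, 1 of 67 with OPG and 7 of 67 with denosumab, beside 10.3%, 1.68% and 7.25% of all genes. In TCam-2 the counts were 7 of 65 with RANKL, 11 of 65 with OPG and 0 of 65 with denosumab, beside 8.92%, 8.68% and 6.56% of all genes. DESeq2 called 0 members in each of the 6 as well. The median SE of a member's log2 change was 0.14 to 0.18. Changes of more than 3 times their SE, such as that of COL9A3 with denosumab in NTera2, did not pass the adjustment over all genes.

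In NTera2 the members with the smallest p with RANKL and with denosumab were collagens that read lower in treated libraries. COL9A3 was at 69.4, 101, 52.4 and 99.8 CPM in vehicle libraries 1 to 4, at 56.1, 50.6, 65.2 and 54.7 CPM with RANKL, at 62.4, 68.2, 68.9 and 65.7 CPM with OPG, and at 39.7, 63.6, 54.0 and 54.1 CPM with denosumab. Vehicle replicates 2 and 4 were the high ones; vehicle replicate 3 lay inside the RANKL and denosumab ranges and below the OPG range. The log2 change of COL9A3 was -0.49 with RANKL (SE 0.16, adjusted p = 0.368 by edgeR), -0.27 with OPG (SE 0.16, adjusted p = 1.00) and -0.60 with denosumab (SE 0.16, adjusted p = 0.397), none of which passed.

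COL6A2 had the same vehicle pattern, at 64.1, 81.5, 52.8 and 67.5 CPM in vehicle libraries, 47.8, 50.5, 61.9 and 44.4 CPM with RANKL, and 44.8, 61.4, 46.3 and 43.2 CPM with denosumab. Its log2 change was -0.36 with RANKL (SE 0.12, adjusted p = 0.381 by edgeR) and -0.43 with denosumab (SE 0.12, adjusted p = 0.400). COL6A1 was at 91.7, 113, 84.9 and 104 CPM in vehicle libraries and 82.8, 82.3, 88.7 and 67.7 CPM with RANKL, a log2 change of -0.27 (SE 0.09, adjusted p = 0.381). COL18A1, which lies near both on chromosome 21, was at 537, 671, 465 and 660 CPM in vehicle libraries and 381, 519, 460 and 430 CPM with denosumab, a log2 change of -0.37 (SE 0.11, adjusted p = 0.408). In all 4 genes vehicle replicate 3 was the lowest vehicle library, and treated and vehicle ranges overlapped. Without that library 2 members passed with denosumab in NTera2, COL9A3 at an adjusted p of 0.0444 and COL18A1 at 0.0455, so these calls depend on 1 vehicle library. Without the filter on low counts COL6A1 and COL6A2 passed with RANKL (adjusted p 0.0407 and 0.00693 by edgeR) and with denosumab (0.0184 and 0.000226). The share of all genes that passed without the filter is not given here.

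With OPG the NTera2 member of smallest p was COL8A2, a network collagen of the cornea, at 4.13, 4.13, 3.63 and 4.63 CPM in vehicle libraries and 5.59, 7.02, 5.39 and 4.95 CPM with OPG. The ranges did not overlap, and the log2 change of 0.49 (SE 0.20, adjusted p = 1.00 by edgeR) did not pass. ITGA6 in NTera2 was at 125, 114, 111.2 and 127 CPM with OPG against 123, 105, 103 and 115 CPM with vehicle, a log2 change of 0.11 (SE 0.07, adjusted p = 1.00).

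In TCam-2 the members of smallest p were ITGA6, ITGA7 and LAMC1 with RANKL, and COL6A2, COL9A3 and COL9A2 with OPG. Members were picked for their p, so the pair counts given for them come from the same values and are no further support. ITGA6 was at 376, 273, 364 and 243 CPM in vehicle libraries, 426, 318, 405 and 368 CPM with RANKL, and 374, 325, 393 and 383 CPM with denosumab. It was higher in 4 of 4 same-numbered pairs with RANKL and in 3 of 4 with denosumab, at log2 changes of 0.24 (SE 0.10, adjusted p = 0.557 by edgeR) and 0.21 (SE 0.10, adjusted p = 0.731). ITGA7 was at 7.26, 8.23, 6.18 and 8.80 CPM in vehicle libraries and 4.58, 6.42, 5.62 and 6.44 CPM with RANKL, lower in 4 of 4 pairs (log2 change -0.43, SE 0.17, adjusted p = 0.557). LAMC1 was at 2196, 1764, 2083 and 1642 CPM in vehicle libraries and 2254, 2021, 2238 and 2285 CPM with RANKL, higher in 4 of 4 pairs (log2 change 0.17, SE 0.07, adjusted p = 0.557). Ranges overlapped in these 3 genes. For ITGA6 and LAMC1, vehicle replicates 2 and 4 were the lowest vehicle libraries. TCam-2 RANKL replicates 2 and 4 were the libraries of low RNA integrity, and without these RANKL libraries 0 members passed as well.

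With OPG, COL6A2 in TCam-2 was at 13.3, 8.67, 11.7 and 10.8 CPM against 15.5, 15.98, 13.1 and 16.6 CPM with vehicle, lower in 4 of 4 pairs (log2 change -0.48, SE 0.15, adjusted p = 0.488 by edgeR). COL9A3 was at 43.6, 26.8, 29.7 and 30.2 CPM against 41.9, 56.2, 31.5 and 53.9 CPM with vehicle (log2 change -0.52, SE 0.18, adjusted p = 0.488). COL9A2 was at 11.2, 7.36, 9.11 and 8.37 CPM against 11.6, 13.1, 8.29 and 19.6 CPM with vehicle (log2 change -0.57, SE 0.20, adjusted p = 0.488). COL9A3 and COL9A2 were not lower in every same-numbered pair. The vehicle and OPG ranges overlapped in each of these genes. COL9A3 passed without the filter on low counts (adjusted p 0.00359 by edgeR), again with no share of all genes given beside it.

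With denosumab, COL1A2 in TCam-2 was at 269, 265, 268 and 241 CPM, below all 4 vehicle libraries at 284, 289, 286 and 271 CPM. The log2 change was -0.14 (SE 0.07, adjusted p = 0.731 by edgeR) and did not pass. ITGB1 was at 486, 414, 480 and 477 CPM against 482, 369, 425 and 369 CPM with vehicle, higher in 4 of 4 pairs (log2 change 0.15, SE 0.08, adjusted p = 0.737).

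**Figure D3:**
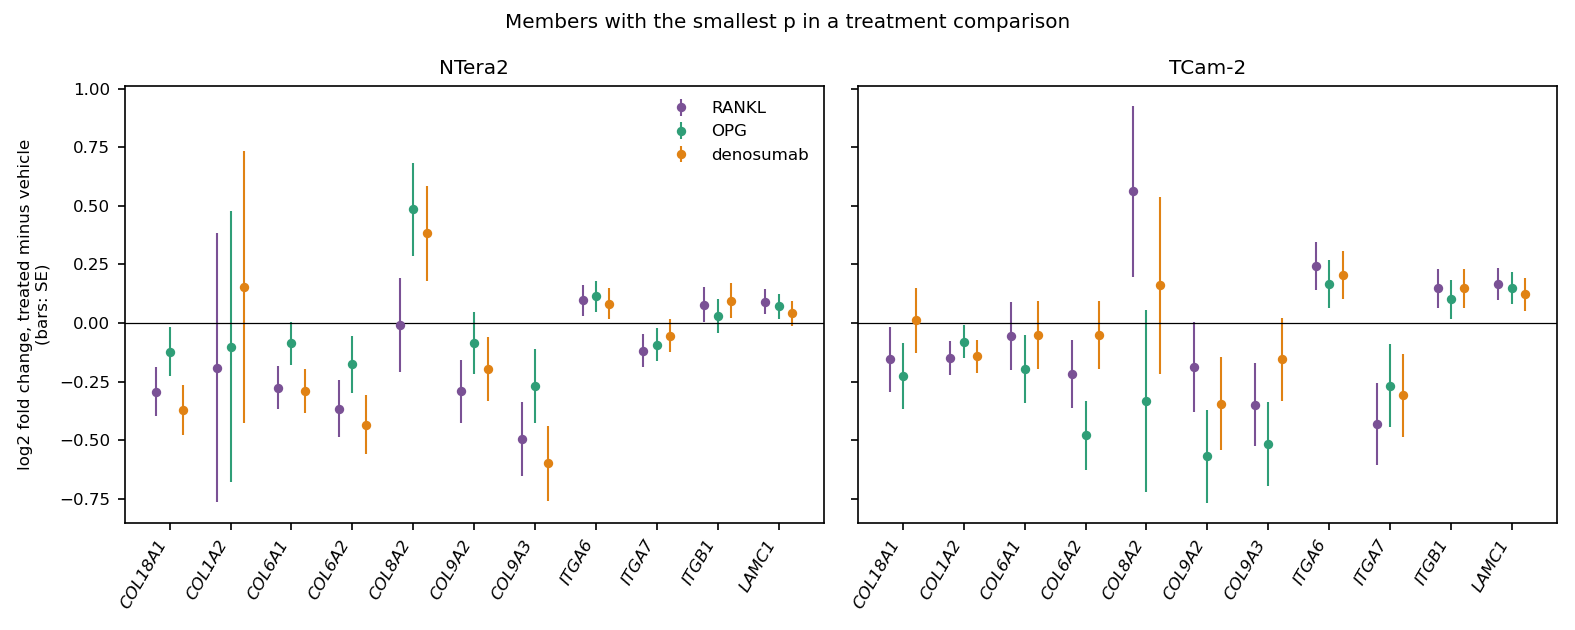
Log2 fold change of treated against vehicle libraries (edgeR, SE bars, n = 4 in each group) for the 11 members that were among the 3 of smallest p in at least 1 comparison, NTera2 at left and TCam-2 at right. No point passed at an adjusted p of 0.05, and the 3 treatments of a line share their vehicle libraries.

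The difference in response between the lines was tested for each treatment over 19216 genes in all 32 libraries. No member of 71 tested passed for RANKL, OPG or denosumab, with 0% of all genes called in each. At an unadjusted p under 0.05 the counts were 1 with RANKL, 6 with OPG and 4 with denosumab, which is 1.41%, 8.45% and 5.63% of the members beside 5.22%, 5.20% and 4.78% of all genes. DESeq2 called 0 members in each. The smallest p with denosumab was that of LAMA5, whose change was higher in TCam-2 than in NTera2 by 0.51 on the log2 scale (SE 0.22, adjusted p = 0.950 by edgeR). Without the filter on low counts, LAMA5 and COL18A1 passed in the denosumab comparison (adjusted p 6.71e-05 and 0.00273 by edgeR). No share of all genes is given for that fit.

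Ratios of matrix chains to each other and to receptors were set side by side in all 8 groups. The log2 ratio of COL1A2 to COL1A1 was between -6.33 and -5.42 in the 4 NTera2 groups, as group means, and between 4.79 and 4.99 in the 4 TCam-2 groups. For LAMC1 against the laminin-binding alpha subunits the group means were 0.33 to 0.43 in NTera2 and 2.04 to 2.11 in TCam-2. For COL4A1 plus COL4A2 against the collagen-binding alpha subunits they were 3.87 to 4.06 in NTera2 and 5.84 to 6.02 in TCam-2. The ratio of LAMA5 to LAMA1 ranged from 0.17 with denosumab to 0.57 with OPG in NTera2, and was 5.16 to 5.43 in TCam-2. The ratio of ITGA6 to ITGA7 in TCam-2 was 5.80 ± 0.52 (SD, n = 4) with vehicle and 6.49 ± 0.40 with RANKL, with overlapping libraries. These ratios of genes, or of sums of genes, were not tested.

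**Figure D4:**
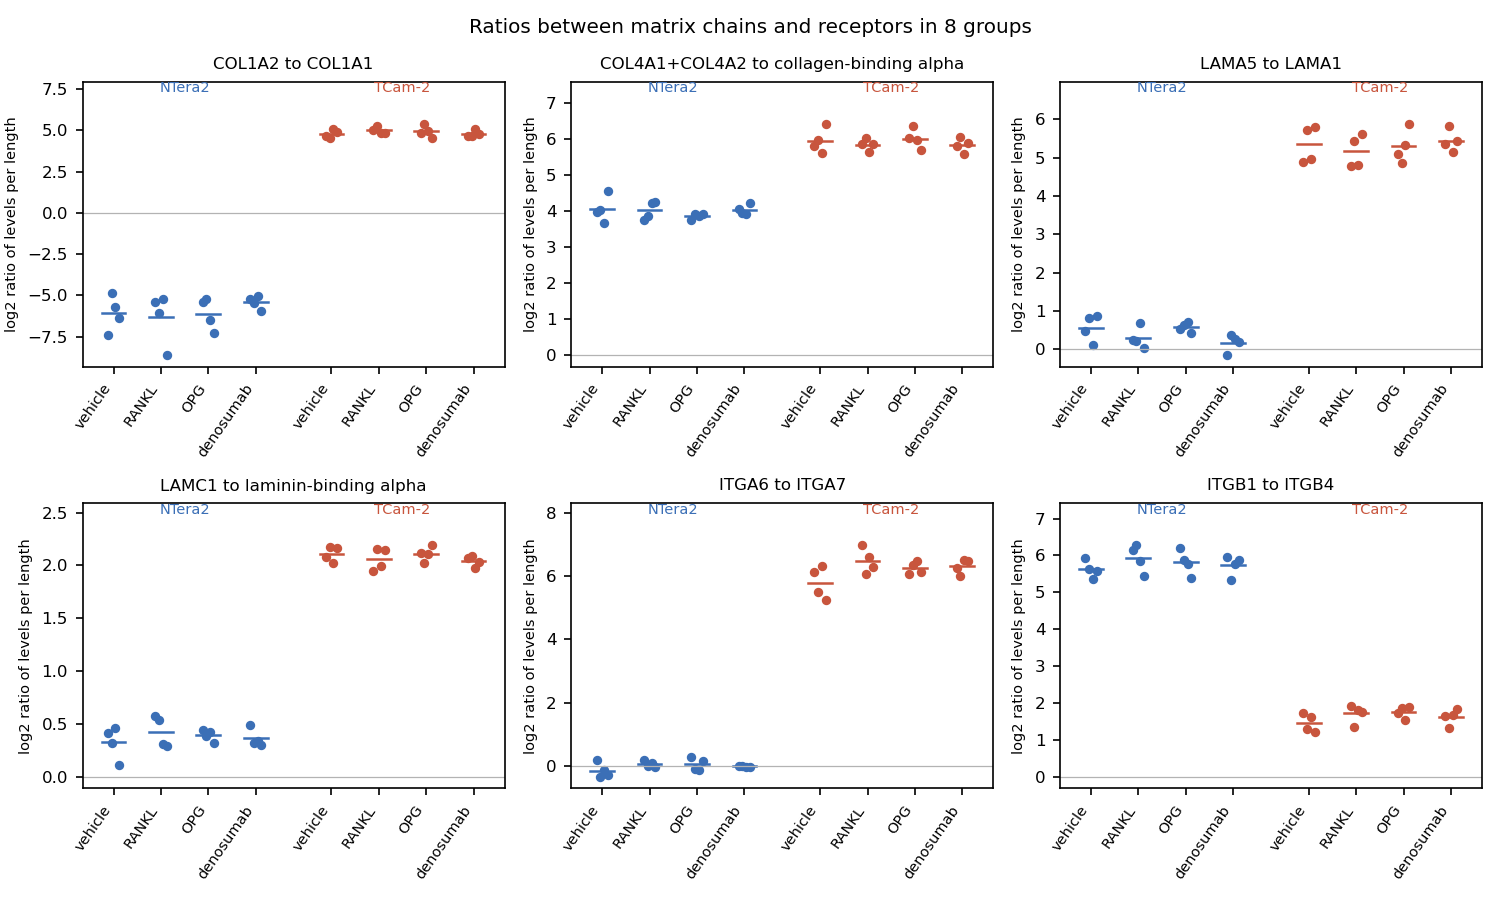
Log2 ratios of levels per length in the 8 groups, with 1 point per library and bars at the group mean, NTera2 in blue and TCam-2 in red. In all 6 panels the lines are apart in every group, and within a line the treated groups lie over or beside the vehicle group.

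Experiments within a line differed in a few members. The 4 experiments were tested in edgeR with treatment as a term. In NTera2 5 of 67 members tested passed, beside 8.28% of 17351 genes. In TCam-2 6 of 65 members tested passed, beside 1.77% of 16621 genes. The NTera2 count lay near the share of all genes and is not read as a result about the members. Experiment and passage are the same 4 sets of libraries and cannot be told apart. Each passage is 1 experiment, so the SDs below are over its 4 treatment cultures and not over repeats of a passage. The test likewise takes its spread from these cultures. COL2A1 in NTera2 averaged 18.8 ± 1.69 CPM (SD, n = 4 treatments) at passage 27, 17.3 ± 1.70 at passage 29, 24.1 ± 2.45 at passage 30 and 31.4 ± 5.11 at passage 31 (adjusted p = 1.97e-05). Libraries of passages 30 and 31 were at 20.9 CPM or above, and 1 library of the earlier passages reached 21.0 CPM. ITGB1 averaged 172 CPM at passage 27 and 147 to 153 CPM at the other 3 passages (adjusted p = 0.00589), a difference of 1.17-fold. COL4A5 averaged 68.4, 73.7, 60.8 and 63.1 CPM at the 4 passages in order (adjusted p = 0.0189). COL4A5 did not pass when any 1 treatment was left out, and ITGB1 did not without the OPG libraries.

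In TCam-2 the leading member was COL22A1 (adjusted p = 8.92e-05 by edgeR). It averaged 33.2 ± 1.17 CPM (SD, n = 4 treatments) at passage 118 and 25.9 ± 2.61 at passage 120. The averages were 17.6 ± 1.78 at passage 121 and 19.9 ± 2.74 at passage 122. COL3A1 averaged 1.22, 1.28, 4.77 and 2.00 CPM in the same order, so passage 121 stood 3.91-fold above passage 118 (adjusted p = 0.00302); it did not pass by DESeq2, nor without the RANKL or the OPG libraries. LAMA1 was at 21.9, 15.8, 20.8 and 15 CPM (adjusted p = 0.00929) and did not pass when any 1 treatment, or the 2 RANKL libraries of low RNA integrity, was left out. COL27A1 and ITGA7 in NTera2 and ITGAV and COL17A1 in TCam-2 also passed, with the highest passage 1.15 to 1.38 times the lowest. The 2 leading genes, COL2A1 and COL22A1, passed in each alternative fit; the number of members that passed fell to 1 in NTera2 and to 1 in TCam-2 without the OPG libraries, and to 1 in TCam-2 without the RANKL libraries.

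**Figure D5:**
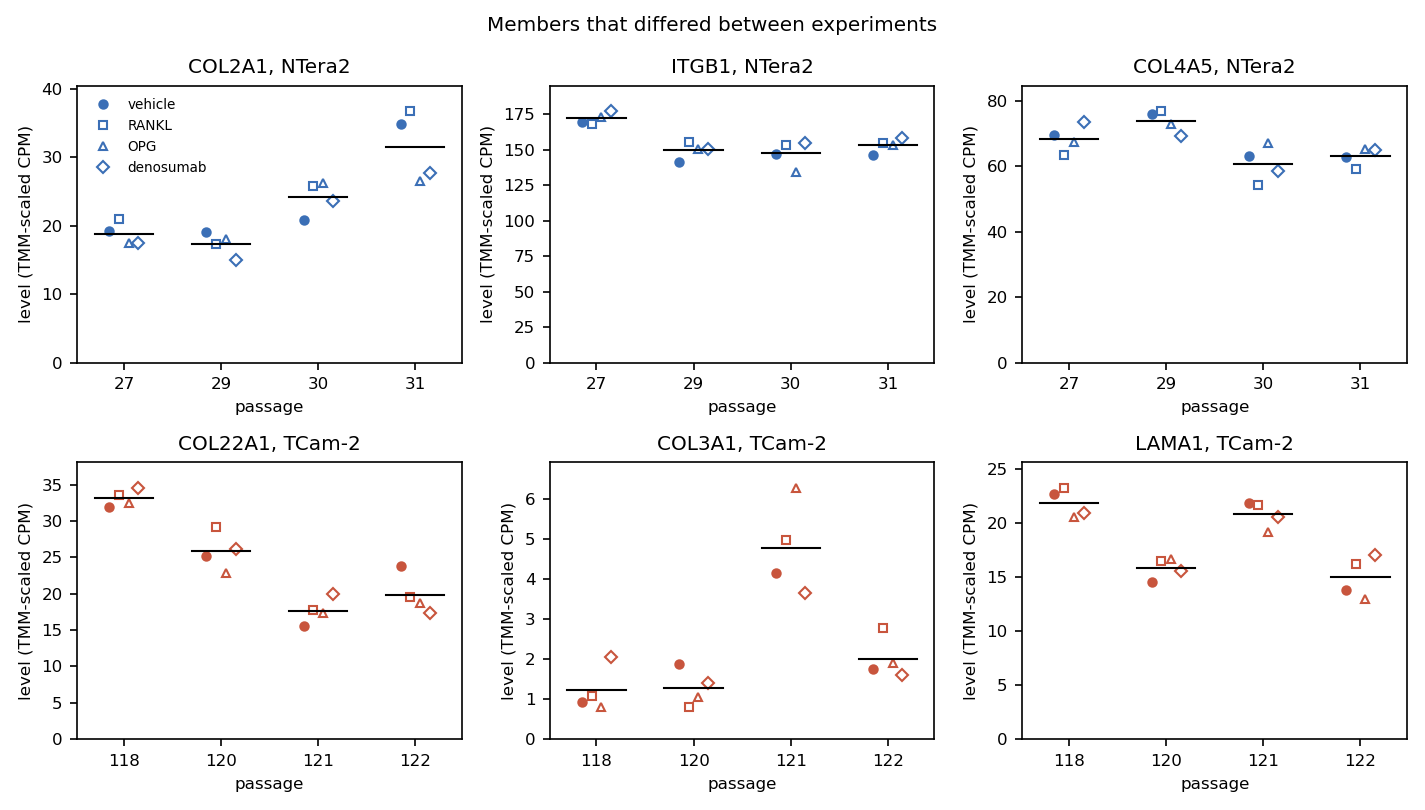
Level (TMM-scaled CPM) by passage of the 3 members with the smallest p between experiments in each line; symbols mark the 4 treatments and bars the mean over them. COL2A1 is highest at passage 31 and COL22A1 at passage 118 in all 4 treatments.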

How the data were processed

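RNA of 32 libraries was measured as whole-number counts per gene, which the authors deposited as 1 table. Per the submitters' processing notes, the tools were bcl2fastq 2.20.0, STAR 2.7.9a and featureCounts 1.6.2 with GRCh38; the annotation release and strand setting are not given in the sources used here. Paired 52-base reads came from stranded libraries, per the labels' protocols. Depth limits low genes, and intervals cover counting error only.

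Counts were fitted with edgeR 4.0.16 in R 4.3.3 (filterByExpr, TMM, robust quasi-likelihood F test, Benjamini-Hochberg over all genes tested, threshold 0.05), after a test on simulated data; DESeq2 1.42.0 was an alternative. SE was the log2 fold change divided by the square root of F. CPM and RPKM used TMM library sizes and, for RPKM, the deposited gene length. The line comparison used 8 vehicle libraries, the treatment comparisons 16 per line and the interactions 32. Adjusted p-values in the text are from these fits. Sums and ratios over members are descriptions.

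Replicate numbers mark 1 passage and experiment within a line, per the labels, and so pair treated with vehicle libraries; deviations of same-numbered libraries correlated at -0.0561 to 0.273. Between lines the number is only a name. The members, gene lists and tests were chosen with earlier results of these data known. Values by library are given for chains of common trimers or heterodimers, the 5 members with the largest difference between lines in each direction (10 CPM or more in 1 line), the 3 highest per length in each family and line, and the 3 of smallest p in each treatment and experiment comparison. Of each list of related genes the 3 with the largest difference are given. Other genes named were chosen after their values were seen, for their roles. The values of 1 member are not reported here. Alternatives were other size factors, no filter, DESeq2, the replicate block, other sets of libraries and leaving out each library (line and treatment comparisons), each replicate number (interactions) or each treatment (experiments).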

Additional observations from a re-analysis of the deposited data

Results flagged for a closer look

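In groups of 4 libraries, 10 values of the members stood apart from the other 3 by Dixon's test at 95%, of 98 groups looked at. For normally distributed values chance alone gives about 1 in 20. Genes of few counts do not meet that. ITGA11, COL5A3 and ITGB3 had 9, 12 and 15 counts over the TCam-2 vehicle libraries, so no excess over chance is read from the number flagged. Levels are in CPM. In NTera2 vehicle libraries, COL2A1 was at 34.8 in replicate 4 against 19.0 to 20.9 in the others, which is the passage 31 library of the experiment comparison. ITGA2 was at 5.04 in replicate 4 against 7.90 to 8.32, and ITGA10 at 3.16 in replicate 3 against 1.17 to 1.46.

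In TCam-2 vehicle libraries, replicate 2 was high in 3 genes of low level: COL5A3 at 1.03 against 0 to 0.0783, ITGB3 at 1.03 against 0 to 0.157, and LAMB3 at 1.68 against 0.704 to 0.800. ITGA11 was at 0.703 in replicate 1 and at 0 in the other 3.

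In denosumab libraries, COL6A2 was at 61.4 in NTera2 replicate 2 against 43.2 to 46.3. In TCam-2, COL1A2 was at 241 in replicate 4 against 265 to 269, and ITGB1 was at 414 in replicate 2 against 477 to 486.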

How the results depend on the processing

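The number of members that differed between the lines, 58, stayed between 58 and 61 in all 13 alternatives, with 61 by DESeq2 and 58 to 60 when 1 library was left out; the 10 members named for their size kept direction and call in all 13, or 130 values. With the replicate block the count was 58, and 0 in each treatment and interaction comparison, so the pairing changed no call. Without the filter on low counts the members called went from 0 to 2 for NTera2 RANKL, 2 for NTera2 denosumab, 1 for TCam-2 OPG and 2 for the denosumab interaction; the cause was not tested. Leaving out 1 library gave 0 to 2 for NTera2 denosumab, with 2 without vehicle replicate 3, and 0 in the other treatment comparisons. In the interactions all libraries of 1 replicate number were left out at a time, which gave 0. For none of the alternatives is the share of all genes called given, so their counts are not read as results about the members. The experiment counts moved most. In NTera2, 5 became 13 without the filter, 3 without the treatment term, 3, 1 and 2 without the RANKL, OPG and denosumab libraries, 7 without the vehicle libraries, and 8 by DESeq2. In TCam-2, 6 became 13 without the filter, 1, 1 and 2 without the RANKL, OPG and denosumab libraries, 5 without the vehicle libraries, 3 without the 2 RANKL libraries of low RNA integrity, and 10 by DESeq2. Depth limits genes of a few counts, such as COL3A1, ITGA4 and ITGAX, and levels per length carry the uncertainty of gene length.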
